A study of Mus musculus with 16 samples.

Results

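The genes examined here were 9 that write, remove or read DNA methylation: the methyltransferases Dnmt1, Dnmt3a and Dnmt3b, the dioxygenases Tet1, Tet2 and Tet3, and the readers Uhrf1, Mbd1 and Mbd2. They were taken by symbol from a list of names, and all 9 were among the 31274 genes of an RNA-seq table of the mouse seminal vesicle (SV). In mammals a methyl group is placed on cytosine mostly where a C is followed by a G. DNMT3A and DNMT3B set new marks, DNMT1 copies them to the daughter strand after replication, and UHRF1 brings DNMT1 to hemimethylated sites. TET enzymes oxidise the mark as a first step of its removal, and several MBD proteins, MBD1 and MBD2 among them, bind methylated DNA.

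The table held FPKM values (sequenced fragments scaled to the exon length of a gene and to the size of the library) for 16 C57BL/6 samples collected at week 5, with 4 in each of 4 groups. WT-veh and WT-DES were wild-type mice given vehicle or diethylstilbestrol (DES, a synthetic oestrogen) as newborns, on days 1 to 5 of life at 2 µg per pup per day. αERKO-veh and αERKO-DES were given the same to mice that carry a global deletion of oestrogen receptor α (ERα, gene Esr1). The animal methods state that WT pups came from bought pregnant females and αERKO mice from breeding heterozygotes. Genotype thus cannot be told apart from the source of the mice. The RNA methods describe pooled mice for WT-DES and single mice for the other groups, so the spread within WT-DES may be one of pools. The number of pools they give is below the number of WT-DES libraries, so it is not clear that these libraries are independent of each other. A gene was tested when its mean FPKM was above 1 in at least 1 group, which left 15988 genes. All 9 members passed that filter, Tet1 only through WT-DES, the group in which it was highest.

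As a check of the genotype labels, Esr1 ranged from 0.91 to 1.75 FPKM in the 8 αERKO samples and from 2.81 to 19.6 in the 8 WT samples. SV secretion genes, which define the tissue, summed to between 30143 and 63298 FPKM in the WT-veh, αERKO-veh and αERKO-DES samples and to between 2436 and 7951 in WT-DES. In WT-DES relative to WT-veh, 11 of 11 leukocyte, 6 of 6 fibroblast and 5 of 5 endothelial markers were higher, 5 of 6 epithelial and 4 of 6 smooth muscle markers were lower, and the sixth epithelial marker, Cdh1, was higher (limma, adjusted p at most 0.05). Of the adipose markers 4 of 6 were higher, and of the skeletal muscle markers 2 of 9, Acta1 and Ckm, were lower. In the same test 36.4% of all genes were higher and 37.3% lower, and these counts are for the values as deposited. Mean log2(FPKM + 1) of the leukocyte list ranged from 4.01 to 4.83 in WT-DES and from 1.83 to 2.24 in WT-veh, and that of the fibroblast list from 7.94 to 8.04 and from 6.32 to 6.60. No fibroblast or endothelial marker was at 0 in any sample, and 1 leukocyte marker, Cd79a, was at 0 in 1 sample. In whole tissue, fewer cells of a type and less RNA per cell cannot be told apart, and the part of these shifts in the changes below was not tested. WT-DES sample 1 stood apart, with a median correlation of 0.918 with the rest of its group against 0.955 for each of the other WT-DES samples.

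The promoters of the TET genes are shown to set Tet2, on which the results below turn, beside its paralogs, and that of Dnmt1 because its RNA followed cell division genes. Each is a window of 300 bases around a RefSeq start, most of it upstream (build GRCm38.p6), is read in the direction of transcription, and has CG dinucleotides, the sites that can be methylated, in capitals.
Tet2, chr3:133544341-133544640, minus strand: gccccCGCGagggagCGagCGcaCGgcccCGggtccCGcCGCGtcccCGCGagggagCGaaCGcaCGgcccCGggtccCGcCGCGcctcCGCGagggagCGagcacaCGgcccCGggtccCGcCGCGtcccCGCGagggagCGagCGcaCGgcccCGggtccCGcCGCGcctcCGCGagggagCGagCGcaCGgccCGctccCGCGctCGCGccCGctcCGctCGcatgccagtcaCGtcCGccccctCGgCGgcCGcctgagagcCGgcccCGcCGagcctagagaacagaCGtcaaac
Tet3, chr6:83441629-83441928, minus strand: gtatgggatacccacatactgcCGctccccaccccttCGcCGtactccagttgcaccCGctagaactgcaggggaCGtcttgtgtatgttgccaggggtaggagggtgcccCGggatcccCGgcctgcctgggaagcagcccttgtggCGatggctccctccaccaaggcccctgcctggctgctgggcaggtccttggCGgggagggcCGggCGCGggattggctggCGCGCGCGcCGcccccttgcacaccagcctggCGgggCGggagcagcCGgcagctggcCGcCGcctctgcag
Tet1, chr10:62887275-62887574, minus strand: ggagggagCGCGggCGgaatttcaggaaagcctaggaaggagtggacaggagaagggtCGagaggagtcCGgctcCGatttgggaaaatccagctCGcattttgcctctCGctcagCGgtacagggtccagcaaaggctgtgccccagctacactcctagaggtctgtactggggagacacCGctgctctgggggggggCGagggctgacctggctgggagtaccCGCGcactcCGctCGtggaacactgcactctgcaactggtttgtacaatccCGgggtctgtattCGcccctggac
Dnmt1, chr9:20952574-20952873, minus strand: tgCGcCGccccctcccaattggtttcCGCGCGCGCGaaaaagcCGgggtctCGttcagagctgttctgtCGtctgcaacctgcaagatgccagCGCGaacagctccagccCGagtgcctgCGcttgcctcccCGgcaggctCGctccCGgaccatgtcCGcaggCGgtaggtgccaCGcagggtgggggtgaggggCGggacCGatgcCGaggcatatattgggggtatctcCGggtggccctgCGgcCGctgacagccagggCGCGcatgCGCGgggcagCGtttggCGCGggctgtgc
The Tet2 window held 57 CG dinucleotides, a number reached by 0.152% of 32851 RefSeq promoter windows of that length, whose median was 7. The Tet3 window held 22 and the Tet1 window 17, numbers reached by 23.1% and 31.4% of windows. The table had 1 window for each TET gene. Those of Tet1 and Tet3 start 21672 and 17406 nt inside the outermost 5′ end that GENCODE annotates for the gene, against 749 nt for Tet2, so these counts may compare unlike starts. The Dnmt1 window starts 7265 nt inside the outermost annotated 5′ end of its gene, against 0 nt for another Dnmt1 window. It is 1 of 3 in the table, with 2 to 33 CG dinucleotides, and was picked for the E2F word it holds. It held 33 and contained TTTGGCGC, 1 of 2 words searched on both strands for E2F (TTTCCCGC and TTTGGCGC), a family of cell cycle transcription factors. Of all windows read, 1.56% held either word, and of the 12 windows read for 7 members this was the only one. The chromosome of Mbd1 and Mbd2 was left out of these windows. The palindromic oestrogen response element GGTCANNNTGACC, searched likewise, was in none of the 12 and in 0.0700% of all windows. These matches describe letters in the windows only, and no methylation or binding was measured in this table.

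FPKM is per length of transcript, which allows levels to be set side by side between genes, although each sample had a trend with length of its own (Spearman rho from -0.52 to 0.44 across genes) that shifts long genes against short ones. In WT-veh the readers Mbd2 (61.5 ± 1.12 FPKM, mean ± SD, n = 4) and Mbd1 (59.7 ± 3.71) were highest, and their samples overlapped. They were followed by Dnmt1 (13.5 ± 1.03), Dnmt3a (10.8 ± 1.10) and Tet3 (9.28 ± 1.35). The samples of Dnmt3a and Tet3 overlapped, whereas every Dnmt1 sample was above every Dnmt3a sample. Lower still were Uhrf1 (4.98 ± 1.46) and Tet2 (3.58 ± 0.386), which overlapped. Dnmt3b (2.16 ± 0.180) and Tet1 (0.802 ± 0.203) were lowest, and neither overlapped its neighbours. In WT-DES the order changed at one place beyond the spread: Tet2 (9.41 ± 0.441) lay above Uhrf1 (4.87 ± 0.831) in every sample. The position of Dnmt3b (1.77 ± 0.281) and Tet1 (1.71 ± 0.505) could no longer be told apart, and the samples of Dnmt1 and Dnmt3a, apart in WT-veh, overlapped. The approach of Tet1 to Dnmt3b rests on a rise of Tet1 that was absent after the length correction described below.

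**Figure D1:**
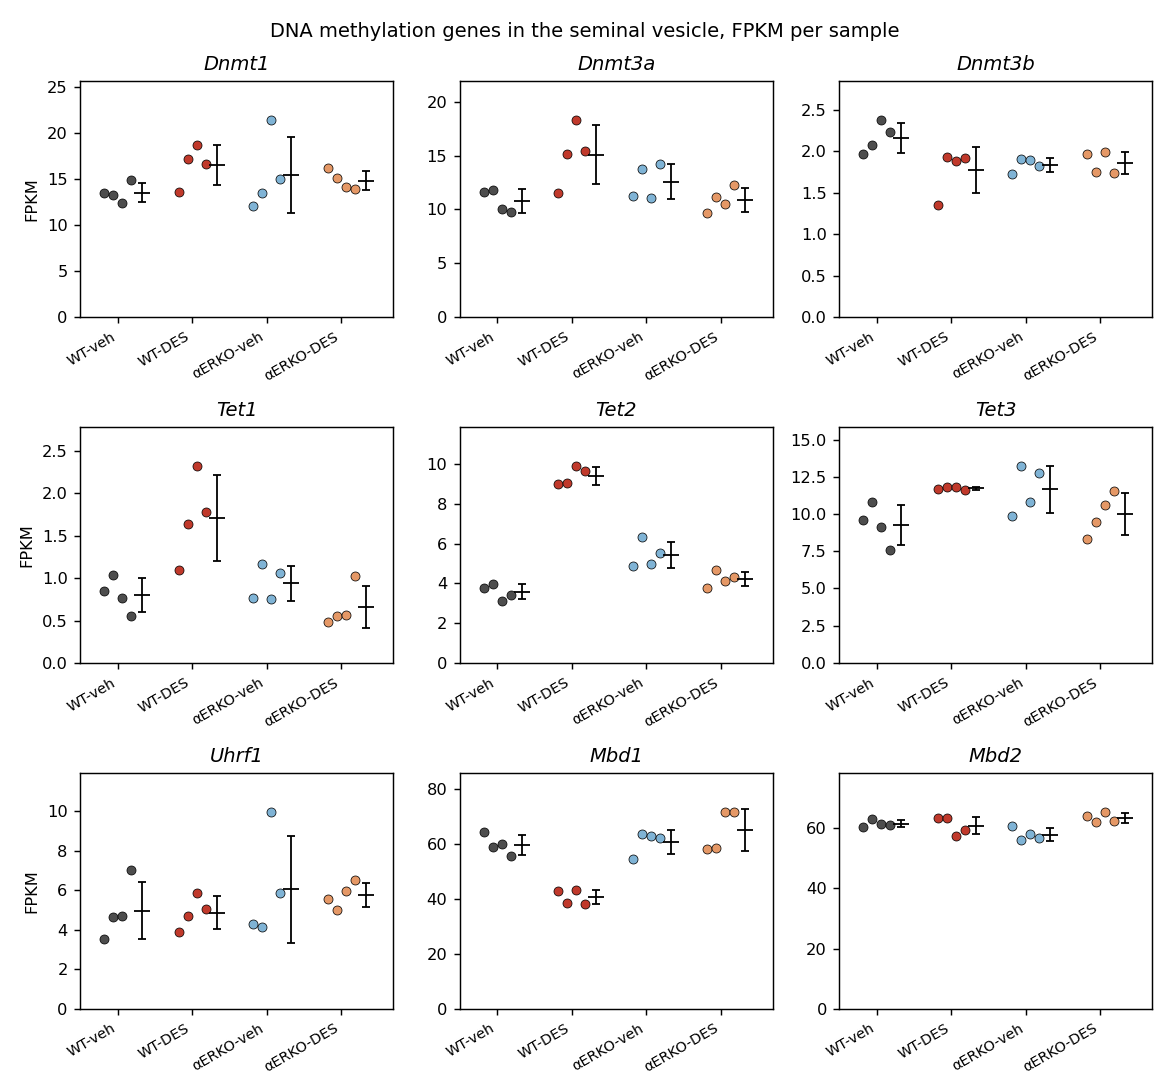
FPKM of each of the 9 genes (y axis, linear, from 0) in the 4 samples of each group (x axis). Points are samples, and the bar beside them is the mean ± SD (n = 4). The WT-DES samples of Tet2 (9.01 to 9.90) lie above all other samples, those of Mbd1 (38.2 to 43.2) lie below, and Mbd2 lies between 56.0 and 65.4 throughout.

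The first comparison asked whether DES given to newborn WT mice left a change at week 5. Relative to WT-veh, Tet2, Tet1, Dnmt3a and Tet3 were higher in WT-DES and Mbd1 was lower, while Dnmt1, Dnmt3b, Uhrf1 and Mbd2 did not pass. Thus 4 of 9 members were higher and 1 was lower (limma on log2(FPKM + 1), Benjamini-Hochberg adjusted over all tested genes). In the same test 36.4% of all genes were higher and 37.3% lower, so the members' count of higher genes was near the background and their count of lower genes below it. The median change of the members was 0.26 on the log2 scale, beside -0.01 for all tested genes, and after a correction for transcript length described below it was -0.04 beside -0.02. Tet2 and Tet1 also had mean FPKM differing by at least 1.5-fold, 2 of 9 members beside 52.7% of all genes. Tet1 entered the test only through WT-DES, so the filter favoured it in both counts. Without WT-DES sample 1 the count was 5 higher and 1 lower, the added gene being Dnmt1.

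Tet2, the TET enzyme best known from blood cells, changed most among the members. Its FPKM was 3.79, 3.99, 3.13 and 3.40 in WT-veh and 9.01, 9.07, 9.90 and 9.67 in WT-DES. The groups did not overlap, and the 4 WT-DES samples lay close together. The ratio of means was 2.63 and the log2 change 1.19 ± 0.09 (SE, limma, adjusted p = 2.38e-08). Leaving out any 1 sample gave a log2 change between 1.14 and 1.23.

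Tet1, which is abundant in embryonic stem cells, was low throughout. It measured 0.85, 1.04, 0.77 and 0.55 FPKM in WT-veh and 1.09, 1.64, 2.32 and 1.78 in WT-DES. The lowest WT-DES sample was just above the highest WT-veh sample. The log2 change was 0.57 ± 0.15 (limma, adjusted p = 0.00291). Since Tet1 entered the test through WT-DES alone, the filter favoured a difference in it. Tet3, the TET enzyme of the oocyte and the most abundant of the family here, measured 9.62, 10.8, 9.13 and 7.56 FPKM in WT-veh and 11.7, 11.8, 11.8 and 11.6 in WT-DES. The WT-DES samples were nearly equal and above every WT-veh sample. The change was 0.32 ± 0.11 (adjusted p = 0.0188), and it was lost without WT-veh sample 4 (adjusted p = 0.0707).

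Among the writers, Dnmt3a measured 11.6, 11.8, 10 and 9.72 FPKM in WT-veh and 11.5, 15.1, 18.3 and 15.4 in WT-DES. WT-DES sample 1 fell among the vehicle samples, and the other WT-DES samples lay above them. The log2 change was 0.43 ± 0.12 (limma, adjusted p = 0.00515). Dnmt3b measured 1.96, 2.07, 2.37 and 2.23 FPKM in WT-veh and 1.35, 1.93, 1.88 and 1.92 in WT-DES. All 4 WT-DES samples were below all WT-veh samples, but the change of -0.19 ± 0.09 did not pass (adjusted p = 0.0642). Dnmt1, the maintenance enzyme, measured 13.5, 13.3, 12.4 and 14.9 FPKM in WT-veh and 13.6, 17.2, 18.7 and 16.6 in WT-DES. The groups overlapped through WT-DES sample 1, and the change of 0.26 ± 0.14 did not pass (adjusted p = 0.0947).

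Of the readers, Mbd1, a repressor that binds methylated CpG, measured 64.4, 58.8, 60.1 and 55.5 FPKM in WT-veh and 42.9, 38.6, 43.2 and 38.2 in WT-DES. The groups did not overlap. The ratio was 0.682 and the log2 change -0.54 ± 0.08 (limma, adjusted p = 3.44e-05). Mbd2, which brings a nucleosome remodelling and deacetylase complex to methylated DNA, ranged from 60.3 to 63.0 in WT-veh and from 57.5 to 63.4 in WT-DES. Its groups overlapped, with a change of -0.02 (95% interval -0.12 to 0.09). Uhrf1 measured 3.55, 4.64, 4.70 and 7.01 FPKM in WT-veh and 3.87, 4.68, 5.87 and 5.06 in WT-DES. Its groups overlapped, and the interval of its change, -0.47 to 0.45, was too wide to exclude a shift of moderate size.

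Most of these changes depended on transcript length or scaling. Over 15048 genes with an annotated length, change in WT-DES and length of the longest transcript had a Spearman rho of 0.26, and the TET and DNMT3A transcripts are long, from 9179 nt for Tet2 to 14369 nt for Tet1 beside a median of 3244 nt. When the length trend of each sample was subtracted, 2 members were higher and 3 lower. Tet2 was still higher, by 0.72 ± 0.07 (limma, adjusted p = 1.75e-07). Dnmt3a then changed by -0.05 (adjusted p = 0.653) and Tet1 by -0.02 (adjusted p = 0.891). Tet3 turned to -0.20 (adjusted p = 0.00651), Dnmt3b passed at -0.31 (adjusted p = 0.00625) and Mbd2 passed at 0.21 (adjusted p = 0.00225). Mbd1 was still lower, by -0.61 (adjusted p = 5.94e-06). The deposited values summed to between 375207 and 437619 FPKM per sample in WT-DES and between 590446 and 652708 in WT-veh. The 20 genes of highest mean FPKM, among them all 8 secretion genes, made up 1.61% to 14.5% of that sum in WT-DES and 14.3% to 17.4% in WT-veh. Rescaling to equal sums without them moved the median change of all genes from -0.01 to 0.37, with 6 members higher and 0 lower. On that scale Mbd1 changed by -0.12 (adjusted p = 0.310) and Mbd2 by 0.41 (adjusted p = 4.64e-06). Quantile normalization likewise ended the calls of Mbd1 (-0.14, adjusted p = 0.209), Tet1 (0.11, adjusted p = 0.497) and Tet3 (0.17, adjusted p = 0.158). Tet2 was the only member that passed in the same direction under each of these. The shares of all genes that passed under them are not given, so the member counts have none beside them.

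**Figure D2:**
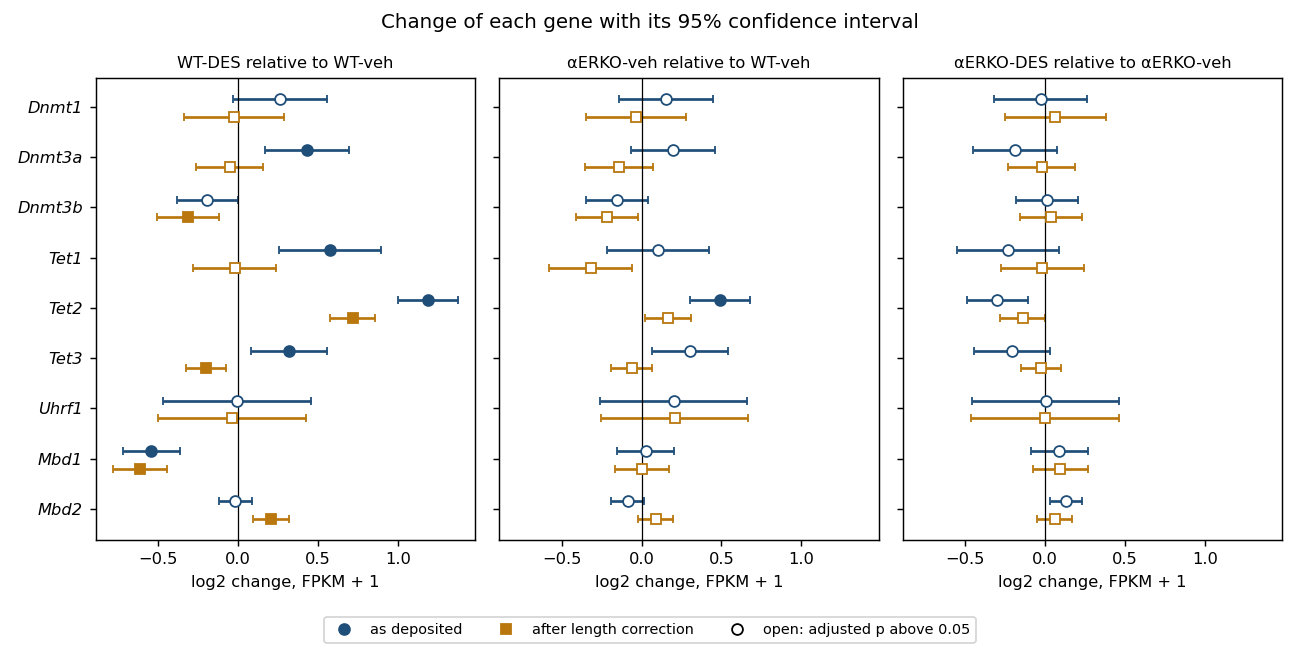
Log2 change of FPKM + 1 (x axis) for each gene (y axis) in 3 comparisons, with 95% confidence intervals (limma). Circles are the values as deposited and squares those after each sample's length trend was subtracted, and filled symbols have an adjusted p of at most 0.05. Tet2 is at 1.19 and 0.72 in WT-DES, while Tet1 is at 0.57 and -0.02 and Tet3 at 0.32 and -0.20.

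Ratios within a sample do not depend on how libraries are scaled to each other. Tet3 over Tet2 was 2.60 ± 0.294 in WT-veh and 1.25 ± 0.0588 in WT-DES (mean ± SD, n = 4), and the groups did not overlap. The log2 difference was -1.03, and it was -1.05 after the length correction, the 2 transcripts being of similar length. The other ratios moved with that correction, that of the TET sum over the DNMT sum from 0.43 to 0.22, Dnmt3b over Dnmt3a from -0.75 to -0.40 and Mbd1 over Mbd2 from -0.54 to -0.83. In the TET sum, Tet2 made up 26.3% ± 2.38 in WT-veh and 41.2% ± 0.679 in WT-DES. Mbd1 over Mbd2 was 0.971 ± 0.0706 in WT-veh and 0.670 ± 0.0603 in WT-DES, again without overlap. Dnmt3b over Dnmt3a was 0.202 ± 0.0359 in WT-veh and 0.118 ± 0.0110 in WT-DES, and the TET sum over the DNMT sum was 0.516 ± 0.0639 in WT-veh and 0.695 ± 0.0897 in WT-DES. Each of these 4 ratios had p = 0.0286 in a two-sided exact permutation test, the smallest that 4 against 4 samples allow. Adjusted over 18 tests this was 0.129, so none passed. Uhrf1 over Dnmt1 (0.365 ± 0.0859 and 0.294 ± 0.0190) and Tet1 over Tet2 (0.223 ± 0.0436 and 0.180 ± 0.0464) overlapped between the groups, each with p = 0.171 in the exact test.

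**Figure D3:**
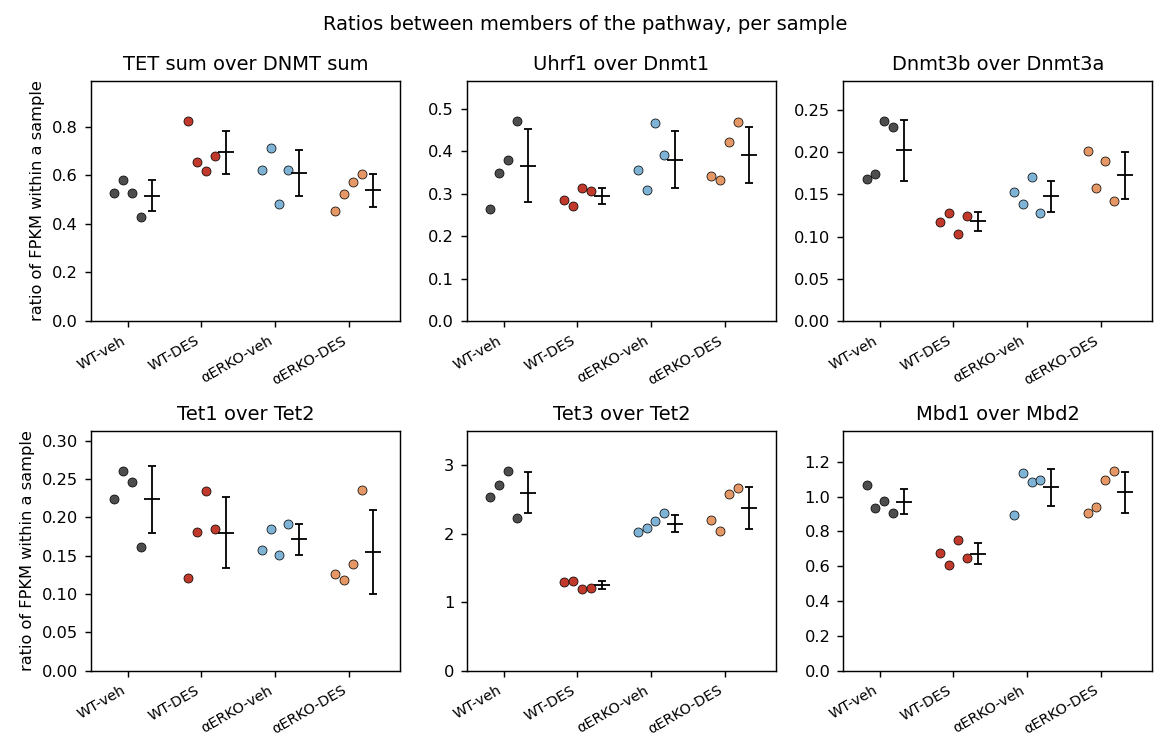
Ratios of FPKM between genes within each sample (y axis, linear, from 0) in the 4 samples of each group (x axis). Points are samples, and the bar beside them is the mean ± SD (n = 4). Tet3 over Tet2 lies near 1.25 in WT-DES and near 2.60 in WT-veh, and Mbd1 over Mbd2 is lowest in WT-DES.

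The second comparison set αERKO-veh beside WT-veh, where loss of ERα cannot be told apart from the source of the mice. Tet2 was the only member that passed (2 did without any 1 of 3 single samples), with 4.90, 6.34, 4.97 and 5.53 FPKM in αERKO-veh. Every one of these samples was above every WT-veh sample and below every WT-DES sample. The ratio of means to WT-veh was 1.52 and the log2 change 0.49 ± 0.09 (limma, adjusted p = 0.00541). Of all tested genes 10.8% were higher and 15.2% lower, beside 1 and 0 of 9 members. Dnmt3b, at 1.72, 1.91, 1.89 and 1.82 FPKM, was also below every WT-veh sample but did not pass (-0.15, adjusted p = 0.221). Tet3 reached 9.89, 13.2, 10.8 and 12.8 FPKM and missed the threshold (0.30, adjusted p = 0.0593). Length followed this comparison more closely than any other, with a Spearman rho of 0.55 across genes. After the length correction Tet2 changed by 0.17 (adjusted p = 0.112) and no member passed. Skeletal muscle markers, whose mean log2(FPKM + 1) was 3.78 to 6.98 in αERKO-veh and 2.25 to 6.24 in WT-veh, were higher for 3 of 9 genes, and 2 of 5 endothelial markers were higher. Of 6 epithelial markers Krt19 and Cldn7 were lower and Cdh1 higher, and of 11 leukocyte markers Lyz2 was lower. Their part in the Tet2 value was not tested.

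The third comparison asked whether DES changed these genes where ERα was absent. No member passed in either direction when αERKO-DES was set against αERKO-veh (limma, 0 of 9), beside 1.33% of all genes higher and 1.52% lower. At an unadjusted p below 0.05 there were 2, Tet2 and Mbd2. Tet2 measured 3.79, 4.66, 4.10 and 4.33 FPKM, with a change of -0.30 (95% interval -0.49 to -0.11, adjusted p = 0.0701). Every αERKO-DES sample was at or below 4.66 and every αERKO-veh sample at or above 4.90, and the former overlapped WT-veh. Mbd2 measured 64.2, 62.1, 65.4 and 62.3 FPKM beside 60.7, 56.0, 58.1 and 56.9 in αERKO-veh, and the groups did not overlap (0.13, adjusted p = 0.120). With weights estimated for each sample, 5 members passed, Dnmt3a, Tet1, Tet2 and Tet3 lower and Mbd2 higher, but 41.8% of all genes then passed in place of 2.85%. That estimate stopped before it converged and gave αERKO-veh sample 4 a weight of 11.8, with at most 2.74 for any other sample. How far this count rests on that sample was not tested. Weights estimated gene by gene, added after seeing the data, gave it 4.20 and called the same 5 members beside 26.8% of all genes. In αERKO-veh relative to WT-veh both sets of weights called 5 members, beside 55.5% and 46.4% of all genes. In this comparison 5 of 9 skeletal muscle and 4 of 6 adipose markers were lower, as were endothelial Tek and fibroblast Dcn, and their part in these values was not tested. The intervals of the other members reached from -0.55 (Tet1) to 0.46 (Uhrf1).

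The difference between the DES response of WT and that of αERKO, again not told apart from the source of the mice, was tested as an interaction. It passed for 5 members, among them Tet1, which the filter favoured as above. It was positive for Tet2 (1.49 ± 0.13, limma, adjusted p = 1.62e-07), Tet1 (0.81 ± 0.21, adjusted p = 0.00334), Dnmt3a (0.62 ± 0.17, adjusted p = 0.00517) and Tet3 (0.52 ± 0.16, adjusted p = 0.00841), all more positive in WT. It was more negative in WT for Mbd1 (-0.63 ± 0.12, adjusted p = 0.000245). These 4 higher and 1 lower of 9 members stood beside 35.3% and 36.2% of all genes. After the length correction the interaction was 0.86 for Tet2 (adjusted p = 1.59e-06) and -0.71 for Mbd1 (adjusted p = 5.45e-05), and Dnmt3b passed at -0.35 (adjusted p = 0.0255). That for Dnmt3a (-0.03), Tet1 (-0.0029) and Tet3 (-0.18) lost its call and its sign. Mbd1 kept neither call nor size after rescaling without the top genes (-0.08, adjusted p = 0.641). Set directly against WT-DES, αERKO-DES was lower for Tet2 (-0.998), Tet1 (-0.70) and Dnmt3a (-0.42) and higher for Mbd1 (0.66), 1 member higher and 3 lower beside 37.8% and 36.2% of all genes. After the length correction Dnmt3a did not pass (-0.11, adjusted p = 0.321) and Tet1 was at -0.32 (adjusted p = 0.0281). After rescaling 1 member was higher and 6 lower, and with quantile normalization 3 and 3.

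Dnmt1 and Uhrf1, which act together at replication forks, varied with cell division genes from sample to sample. In αERKO-veh, Dnmt1 measured 12.04, 13.5, 21.4 and 14.98 FPKM and Uhrf1 4.27, 4.16, 9.97 and 5.84. αERKO-veh sample 3 was the highest of all 16 for both genes and also for the mean of 19 cell division genes, at 3.69 on the log2 scale. Over the 16 samples the correlation with that mean was 0.75 for Dnmt1 and 0.80 for Uhrf1, and within groups it was 0.76 and 0.89. Leaving out the 2 samples farthest from the median, αERKO-veh sample 3 and WT-veh sample 4, it was 0.63 and 0.58 over 14 samples. These describe libraries that share groups and scaling. In WT-DES, 4 of the 19 cell division genes were higher and 3 lower, beside 36.4% and 37.3% of all genes. The mean of the 19 ranged from 2.78 to 3.36 beside 2.86 to 3.38 in WT-veh. For Dnmt3a the correlation was 0.13 and -0.059 within groups, and for Dnmt3b 0.31 and 0.61. Some members that passed in WT-DES varied with cell type lists. Tet2 had a correlation of 0.95 with the endothelial mean (0.68 within groups) and -0.94 with the epithelial (-0.61). With the fibroblast and the leukocyte mean it was 0.87 each (0.60 and 0.091 within groups). The correlation with the epithelial mean was -0.93 for Tet1 (-0.80 within groups), -0.87 for Dnmt3a (-0.75) and -0.66 for Tet3 (-0.58). Mbd1 had correlations of -0.90 with the leukocyte and 0.79 with the epithelial mean, but 0.18 and -0.31 within groups. The part of these lists in the changes was not tested.

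**Figure D4:**
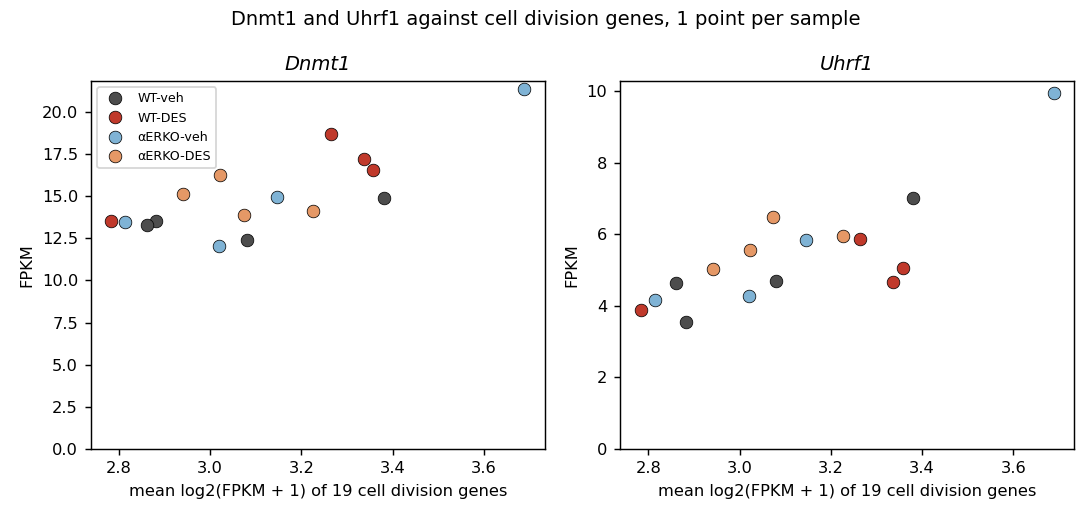
FPKM of Dnmt1 and Uhrf1 (y axes, linear, from 0) against the mean log2(FPKM + 1) of 19 cell division genes (x axis), 1 point per sample, coloured by group. αERKO-veh sample 3, at 3.69 on the x axis, is highest in both panels, at 21.4 FPKM for Dnmt1 and 9.97 for Uhrf1.

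The tested genes most like each member over the 16 samples, by Pearson correlation of log2(FPKM + 1), are given as a description, since all share the groups and the length trend. For Dnmt1 they were Pold1 (0.93), a subunit of a replicative DNA polymerase, Lig1, which joins DNA ends, and Mcm3, a subunit of the replicative helicase. For Uhrf1 they were Mcm5 (0.89), of the same helicase, Dtl and the histone chaperone Asf1b. Tet2 ran with Ccdc82, Ptch1 and Stxbp4 (each 0.98). Ptch1, the receptor for hedgehog ligands, had a mean of 10.3 FPKM in WT-veh and 33.7 in WT-DES. Dnmt3a ran with the collagen gene Col4a5 (0.97), Tshz2 and Etv1, Tet1 with Cdon (0.97), Fam171b and Sema5a, and Tet3 with Atxn1l (0.96), Atf7 and Atxn7. Mbd1 ran with Yipf6, Cog3 and Ctage5 (each 0.96), Dnmt3b with Il11ra2 (0.84), Slc25a22 and C630043F03Rik, and Mbd2 with Rdh12 (0.85), 6330418K02Rik and Rbbp8. Between members the closest pair was Dnmt3a and Tet1 (0.95 over the 16 samples and 0.94 within groups), and Dnmt1 and Uhrf1 stood at 0.67 and 0.80.

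Around the 9 genes, 38 further genes of the pathway were examined in 4 lists, of which 37 were tested. In WT-DES 13 were higher and 17 lower than in WT-veh, shares not far from the 36.4% and 37.3% of all genes. Without WT-DES sample 1 these were 14 and 17, and after rescaling without the top genes they were 19 and 6. In αERKO-veh relative to WT-veh 5 were higher and 7 lower, beside 10.8% and 15.2% of all genes. After the length correction these were 1 and 3, and after rescaling 9 and 2. Against αERKO-veh, αERKO-DES had 3 higher and 0 lower, beside 1.33% and 1.52% of all genes, and both quantile normalization and rescaling left 0 and 0. The lists below are read against the same shares of all genes, which are for the values as deposited. Shares under the alternatives are not given, so counts after rescaling, quantile normalization or the length correction have none beside them.

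Of 9 tested partners of the methyltransferases, 4 were higher and 1 lower in WT-DES (36.4% and 37.3% of all genes), and 7 and 0 after rescaling. Zfp57, a zinc finger protein that protects methylation at imprinted genes, was higher (from 2.66 ± 0.394 to 9.50 ± 2.61 FPKM, change 1.497, adjusted p = 8.31e-07). Uhrf2, the paralog of Uhrf1, was higher (18.9 ± 0.920 to 28.6 ± 3.80 FPKM, 0.57, adjusted p = 6.10e-06), whereas Uhrf1 itself was not. Cdca7, which works with the remodeller HELLS, was higher in WT-DES (8.62 ± 0.830 to 13.4 ± 1.94 FPKM, 0.58, adjusted p = 0.000952) and lower in αERKO-veh (5.42 ± 1.35 FPKM, -0.60, adjusted p = 0.00884). Trim28, the corepressor that ZFP57 recruits, was lower (82.8 ± 2.59 to 59.9 ± 1.47 FPKM, -0.46, adjusted p = 1.28e-05), but not after quantile normalization (0.07) or rescaling (-0.03). Trim28 was also lower in αERKO-veh relative to WT-veh (-0.27, limma, adjusted p = 0.0106). After quantile normalization or rescaling, 1 of the 9 partners was lower in that comparison. Dnmt3l, the inactive cofactor of the DNMT3 enzymes in germ cells, was added here after its values were seen. It passed the filter on low values only through WT-DES, where it is high, so that it had to differ. It is 1 of the 4 higher partners and is among the higher genes counted over all 4 lists. It measured 0.92, 0.75, 0.78 and 1.01 FPKM in WT-veh and 20.01, 1.86, 3.01 and 3.47 in WT-DES. Sample 1 was far above the others, and without it the change was 0.996 in place of 1.62.

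Of 14 genes of demethylation and base excision, 5 were higher and 7 lower in WT-DES (36.4% and 37.3% of all genes). After rescaling these were 7 and 2, with Tdg, Xrcc1, Parp1, Cxxc4 and Idh2 no longer lower. Gadd45g, a stress gene of a family linked to demethylation, was lower (157 ± 8.10 to 32.2 ± 9.61 FPKM, -2.30, adjusted p = 2.74e-08). Its paralogs, added after their values were seen, moved the other way. Gadd45b measured 7.07, 5.45, 6.58 and 11.6 FPKM in WT-veh and 58.9, 25.2, 17.8 and 18.4 in WT-DES (1.71, adjusted p = 0.000162), and Gadd45a rose by 0.97 (adjusted p = 0.00201). In αERKO-DES relative to αERKO-veh none of the 3 passed. Mbd4, a DNA glycosylase that binds methylated CpG, was higher (2.18 ± 0.0557 to 5.44 ± 1.39 FPKM, 0.99, adjusted p = 1.69e-05). Apex1, the endonuclease that cuts abasic sites, was lower (58.4 ± 4.66 to 37.0 ± 1.37 FPKM, -0.64, adjusted p = 2.60e-05), by less after rescaling (-0.22), quantile normalization (-0.26) or the length correction (-0.25), as was Parp1, a sensor of DNA breaks (-0.47, adjusted p = 2.80e-05), which did not pass after rescaling (-0.05, adjusted p = 0.573). Apex1 was also lower in αERKO-veh (-0.56, adjusted p = 0.00499; -0.28 after the length correction) and higher in αERKO-DES than in αERKO-veh (0.40, adjusted p = 0.0420). The latter call was lost after rescaling (adjusted p = 0.0583), quantile normalization (adjusted p = 0.0967) and in 10 of 16 fits that left out a sample. In those 10 fits the change was 0.32 to 0.42. Its exons share 877 of 1422 bases with Pip4p1 on the opposite strand, and the strand setting of the counting is not given in the sources used here.

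Among 6 other genes of the MBD and Kaiso-like families, not all of whose proteins select methylated CpG, 3 were higher and 2 lower in WT-DES (36.4% and 37.3% of all genes). The lower call of Mbd6 was lost in 6 of 16 fits that left out a sample, with changes of -0.27 to -0.21 there. Mbd3, the subunit that holds the MBD position in a nucleosome remodelling and deacetylase complex, measured 154, 145, 157 and 176 FPKM in WT-veh and 77.5, 68.3, 72.9 and 71.6 in WT-DES. The groups lay far apart, and the change was -1.11 (adjusted p = 2.67e-07), or -0.50 with quantile normalization and -0.68 after rescaling. Mbd5 (3.29 ± 0.416 to 7.54 ± 0.500 FPKM, 0.995, adjusted p = 5.42e-07) and Zbtb38 (1.23, adjusted p = 2.31e-05) were higher. Zbtb33, which encodes Kaiso, was higher by 0.36 (adjusted p = 0.0116), but did not pass after the length correction (0.14, adjusted p = 0.200) or quantile normalization (adjusted p = 0.281). In αERKO-veh relative to WT-veh 4 of the 6 were higher (10.8% of all genes), including Zbtb33 (0.37, adjusted p = 0.0298), Mbd5 (0.41, adjusted p = 0.0122) and Zbtb38 (0.72, adjusted p = 0.0138), and 1, Mbd3, was lower (-0.37, adjusted p = 0.0211). Of these, Zbtb38 alone passed after the length correction (0.45, adjusted p = 0.0467), and it did not pass without αERKO-veh sample 2 (0.64, adjusted p = 0.0521). The calls of Zbtb33 and Mbd3 there were lost in 6 and 3 of 16 fits that left out a sample, and that of Zbtb4, the other gene counted as higher, in 10. In those fits the changes were 0.29 to 0.38 for Zbtb33, -0.37 to -0.29 for Mbd3 and 0.28 to 0.37 for Zbtb4.

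Of 8 genes that supply the methyl donor, 7 were lower and 1 higher in WT-DES (37.3% and 36.4% of all genes). With quantile normalization these were 5 and 2, Mat2b turning higher, and after rescaling 3 and 1. Shmt2 and Shmt1, which pass carbon from serine to folate, fell from 95.2 ± 6.19 to 26.1 ± 1.87 FPKM (-1.83, adjusted p = 1.33e-09) and from 32.6 ± 1.47 to 11.1 ± 2.6 FPKM (-1.497, adjusted p = 3.26e-08). Ahcy, which clears the product of methylation, was lower (-0.67, adjusted p = 1.53e-06), and methionine synthase, Mtr, was higher (0.84, adjusted p = 9.16e-07). Each of these 4 passed in the same direction after rescaling and after the length correction. In αERKO-DES relative to αERKO-veh, Shmt2 (0.44, adjusted p = 0.0365) and Ahcy (0.31, adjusted p = 0.0456) were higher. Neither passed after rescaling (adjusted p = 0.0542 and 0.203) or quantile normalization (adjusted p = 0.111 and 0.0839), and the calls were lost in 7 and 11 of 16 fits that left out a sample. In those fits the changes were 0.38 to 0.48 and 0.26 to 0.32. In αERKO-veh relative to WT-veh, Ahcy (-0.26, adjusted p = 0.0222) and Mat2a, which makes S-adenosylmethionine (-0.53, adjusted p = 0.0391), were lower, and Mtr was higher (0.37, adjusted p = 0.0125). None of the 3 passed after the length correction (adjusted p = 0.147, 0.0702 and 0.620). Mat2a measured 80.5, 88.7, 108 and 178 FPKM in WT-veh and 76.1, 68.1, 80.8 and 74.7 in αERKO-veh, so the groups overlapped. Without WT-veh sample 4 its change was -0.29 (adjusted p = 0.0644). The calls of Mat2a and Ahcy were lost in 6 and 4 of 16 fits that left out a sample, with changes of -0.57 to -0.29 and -0.26 to -0.21 there.

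**Figure D5:**
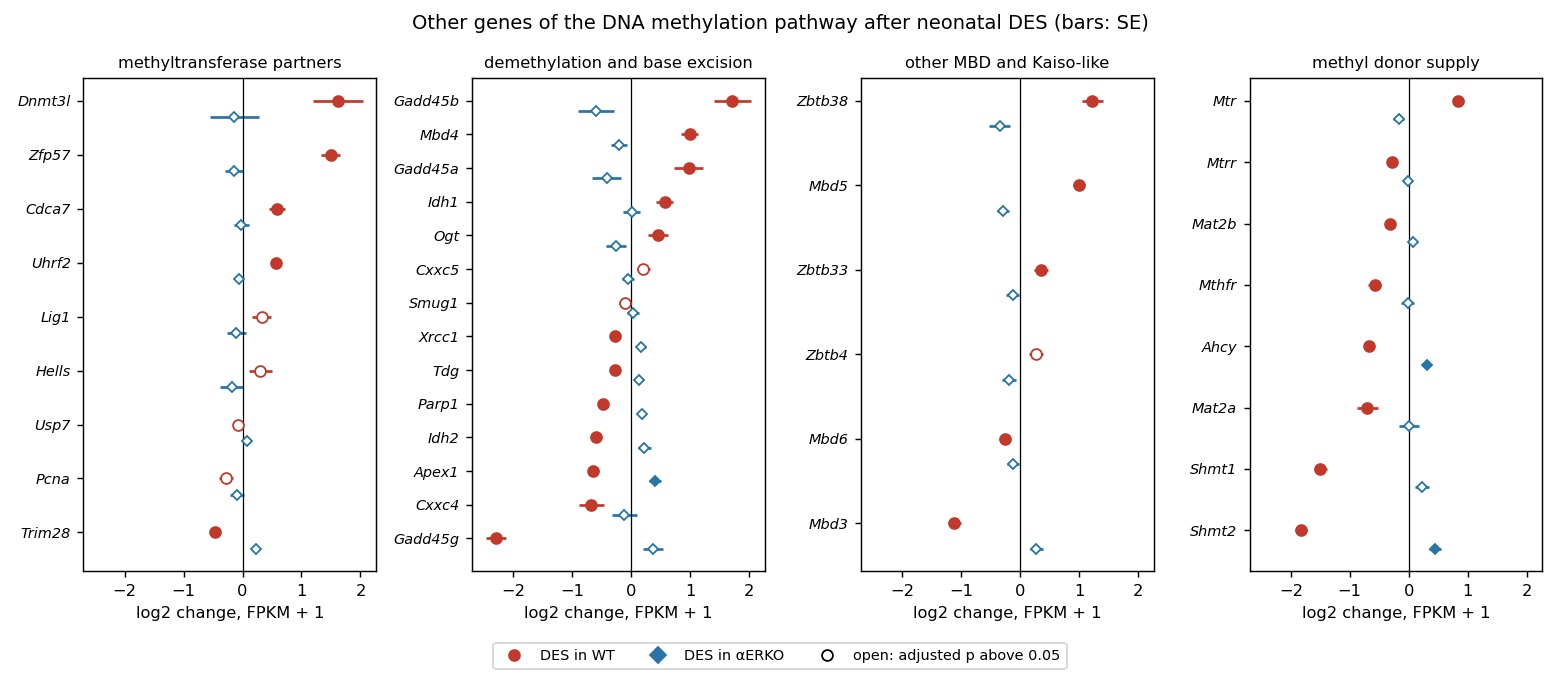
Log2 change of FPKM + 1 after DES (x axis) for 37 further genes of the pathway (y axis, by list), in WT (circles) and in αERKO (diamonds), with bars for the SE and filled symbols for an adjusted p of at most 0.05. In WT, Gadd45g is at -2.30 and Gadd45b at 1.71, and in αERKO only Apex1 (0.40), Ahcy (0.31) and Shmt2 (0.44) are filled.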

How the data were processed

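RNA was sequenced from 16 SV samples, 4 per group, grouped by the labels. The authors kept paired 126 nt reads of mean quality above 20, aligned them to mm10 with TopHat (2.0.4, also in the submitters' processing notes) and computed FPKM with Cufflinks (2.0.2). The gene annotation and strand setting of this table are not given in the sources used here. The deposited table holds FPKM only, so sequencing depth is unknown and no counting interval can be given. No sample columns were identical.

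FPKM was analysed as log2(FPKM + 1) with limma 3.58.1 (R 4.3.3), fitting group means to all 16 samples with a variance trend. Benjamini-Hochberg adjustment ran across 15988 genes, those whose group mean exceeded 1 FPKM somewhere. The sums of FPKM ranged from 375207 to 652708 per sample. The authors' test, Cuffdiff, needs reads, and limma took its place. Genes with adjusted p up to 0.05 passed, and a DEG also needed a 1.5-fold ratio of mean FPKM. Fold changes on this scale understate changes of low genes, such as Tet1. Ratios within a sample were compared by two-sided exact permutation (scipy 1.17.1) on log2 ratios with 0.1 added to each side, adjusted over 18 tests. Transcript length was that of the longest GENCODE transcript, matched by symbol or synonym for 94.1% of tested genes, and the correction subtracted from each sample its lowess trend (span 0.3) on log length. Promoters were read from RefSeq windows and matched by symbol for 7 members. The chromosome of Mbd1 and Mbd2 was left out of these windows, so those members had none. The test script was tested on simulated data. The members, gene lists and tests were chosen with earlier results of these data known. From the 4 pathway lists the text names up to 4 genes per list and comparison with the smallest adjusted p, plus 3 like genes per member. Any other is said to be added, or is named because a check changed its call. A gene of the MBD and Kaiso-like list is not reported here and was left out of the counts of the lists. Alternatives comprised pseudocounts, filters, variance models, scalings, length correction, sample weights (limma arrayWeights, whose iterative estimate did not converge, and its gene-by-gene method, added after seeing the data), a replicate block, and leaving out each sample.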

Additional observations from a re-analysis of the deposited data

Results flagged for a closer look

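In 3 groups 1 sample lay far from the other 3, with a gap to its neighbour past Dixon's 95% critical value for 4 samples. Of 60 groups examined, chance alone would give about 1 in 20. Dnmt3b in WT-DES was lowest in sample 1, at 1.35 FPKM beside 1.88 to 1.93. Tet1 in αERKO-DES was highest in sample 4, at 1.02 FPKM beside 0.48 to 0.57. Mbd1 in αERKO-veh was lowest in sample 1, at 54.4 FPKM beside 62.4 to 63.6.

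For 5 members the interaction test (limma) found unlike DES responses in the genotypes. The difference in log2 change, WT less αERKO, was 1.49 for Tet2, 0.81 for Tet1, 0.62 for Dnmt3a, 0.52 for Tet3 and -0.63 for Mbd1. Over all genes 35.3% were higher and 36.2% lower in that test. Tet1 was tested only because its WT-DES mean exceeded 1 FPKM, so the filter favoured its difference. After the length correction the values were -0.030 for Dnmt3a, -0.0029 for Tet1 and -0.18 for Tet3, none of which passed (adjusted p = 0.858, 0.989 and 0.0725), and Mbd1 did not pass after rescaling without the top genes (-0.08, adjusted p = 0.641). Tet2 passed under both.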

How the results depend on the processing

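Tet2 kept its direction and its side of the threshold in WT-DES and in the interaction under every alternative run. The number of members that passed in WT-DES lay between 4 and 6 of 9 throughout (4 of 7 tested with a mean FPKM above 5). In αERKO-veh relative to WT-veh 1 member passed, and it was 5 with sample weights, 2 after rescaling without the 20 top genes, 0 after the length correction and 1 to 2 when leaving out a sample, Tet3 being added without WT-veh sample 2, αERKO-veh sample 1 or αERKO-DES sample 1. In αERKO-DES relative to αERKO-veh it was 5 with sample weights and 0 to 1 when leaving out a sample, Tet2 being added without αERKO-veh sample 1. αERKO-DES relative to WT-DES gave 4, and 7 after rescaling (1 higher, 6 lower), 6 with quantile normalization (3 higher, 3 lower) and 3 after the length correction (1 higher, 2 lower). The interaction gave 5 members, and 3 after the length correction and 7 with sample weights. Most of these counts have no share of all genes under the same alternative beside them. The sample weights did not converge and gave αERKO-veh sample 4 the largest weight. Weights estimated gene by gene, chosen after seeing the data, gave 5 members in each of αERKO-veh relative to WT-veh and αERKO-DES relative to αERKO-veh, and for Uhrf1 0.16 in WT-DES, -0.049 in αERKO-DES and 0.21 in the interaction.

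Whether the replicate numbers of the titles pair the samples was not settled. Deviations of same-numbered samples correlated between -0.21 and 0.28, with no different-numbered samples set beside them. With the replicate block, 5, 1, 0, 4 and 5 members passed in the 5 tests, as without it, and the ratios were unchanged by construction (Tet3 over Tet2 -1.03).

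Signs turned for changes near 0 and for larger ones that had not passed, such as Dnmt1 and Dnmt3b in WT-DES. Under the length correction they also turned for those of Tet1, Dnmt3a and Tet3 that had passed. In WT-DES relative to WT-veh, the length correction gave -0.025 for Dnmt1, -0.051 for Dnmt3a, -0.020 for Tet1, -0.20 for Tet3 and 0.21 for Mbd2. There Mbd2 was also 0.030 with median-ratio scaling, 0.49 with quantile normalization and 0.41 after rescaling, and -0.035 to 0.011 when leaving out a sample. Uhrf1 was 0.17 with sample weights, 0.032 with median-ratio scaling, 0.36 after rescaling and -0.13 to 0.14 when leaving out a sample, and Dnmt3b was 0.10 after rescaling. In αERKO-veh relative to WT-veh, the length correction gave -0.035 for Dnmt1, -0.14 for Dnmt3a, -0.32 for Tet1, -0.063 for Tet3 and 0.089 for Mbd2, which was 0.063 with quantile normalization and 0.092 after rescaling. When leaving out a sample, Dnmt1 was -0.0051 to 0.25, Uhrf1 -0.036 to 0.35 and Mbd1 -0.0091 to 0.077. In αERKO-DES relative to αERKO-veh, Dnmt1 was 0.064 after the length correction and -0.13 to 0.13 when leaving out a sample, and Dnmt3b was -0.0029 with sample weights, -0.073 after rescaling and -0.0098 to 0.032 when leaving out a sample. There Tet1 was 0.0077 and Mbd1 -0.049 with quantile normalization, Mbd1 was -0.040 after rescaling, and Uhrf1 was -0.077 with sample weights, -0.011 with median-ratio scaling, -0.0018 after the length correction, -0.11 after rescaling and -0.12 to 0.24 when leaving out a sample. In the interaction, the length correction gave -0.089 for Dnmt1, -0.030 for Dnmt3a, -0.0029 for Tet1, -0.18 for Tet3 and 0.15 for Mbd2, which was 0.49 with quantile normalization and 0.41 after rescaling. Dnmt3b was 0.17 after rescaling, and Uhrf1 was 0.24 with sample weights, 0.044 with median-ratio scaling, 0.46 after rescaling and -0.24 to 0.14 when leaving out a sample. The length correction moved the ratios in WT-DES to 0.22 (TET sum over DNMT sum), -0.40 (Dnmt3b over Dnmt3a), -0.89 (Tet1 over Tet2) and -0.83 (Mbd1 over Mbd2), and in αERKO-veh to -0.15 (Dnmt3b over Dnmt3a), -0.78 (Tet1 over Tet2) and -0.088 (Mbd1 over Mbd2). The causes of these differences were not tested. Without counts, the precision of low values such as those of Tet1 and Dnmt3b cannot be given.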

Other observations

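Summed over the family, DNMT transcripts of WT mice measured 26.5 ± 1.15 FPKM with vehicle and 33.4 ± 5.14 with DES (mean ± SD, n = 4), and those of αERKO mice 29.9 ± 3.87 and 27.6 ± 0.675. TET transcripts of WT mice summed to 13.7 ± 1.84 FPKM with vehicle and 22.9 ± 0.948 with DES, and those of αERKO mice to 18.04 ± 2.40 and 14.9 ± 1.78. The lowest WT-DES sum of TET transcripts, 21.8, was above the highest of any other group, 20.7. These sums carry the length trend of each sample. After its correction, in WT-DES relative to WT-veh, Tet3 was lower (-0.20, limma, adjusted p = 0.00651), Tet1 was at -0.02, and the log2 ratio of TET to DNMT sums was 0.22 in place of 0.43. Dnmt1 made up 51.1% ± 2.998 of the DNMT sum in WT-veh and 49.6% ± 1.40 in WT-DES, and Dnmt3b 8.18% ± 1.03 and 5.31% ± 0.402, without overlap between these 2 groups. No test was run on these sums and shares beyond the ratios given above.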
